A study of Homo sapiens with 4 samples.

Results

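The mRNA levels of 9 p53 target genes were followed in 293T cells transfected with miRNA mimics. They were CDKN1A, MDM2, MDM4, GDF15, BAX, BBC3, SESN1, RRM2B, and ZMAT3. The rule for them is a list of gene symbols, with no threshold on measured values, and the symbols were matched to Ensembl gene identifiers. All 9 were found among the 58243 genes in the data, and all 9 were above the detection threshold of 0.004 in every library.

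293T cells are an established line from human embryonic kidney. A mimic is a synthetic RNA that acts as the mature miRNA. The study asked how strongly 3 human miRNAs inhibit their target genes. There were 4 RNA-seq libraries of 293T cells, 1 each for a control RNA (negative control) and for mimics of miR-1, miR-122, and miR-124. The labels give RNA isolation at 48 h of transfection, whereas the study's methods give an earlier time. All groups share the cell line and the transfection, and no untransfected cells were analysed here. With 1 library per condition, no difference below has a replicate check, and no test between conditions was possible.

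p53 is a transcription factor that is activated by DNA damage and other stresses and switches on genes for cell cycle arrest, DNA repair, and apoptosis. Its level is held low by MDM2, an E3 ubiquitin ligase that is itself a p53 target, and by the related MDM4. In 293T cells p53 protein is bound by the SV40 large T antigen and adenoviral oncoproteins, which hold its activity down. A miRNA pairs through its seed, near its 5′ end, with complementary sites in 3′ UTRs and lowers the mRNA level. miR-122 has been linked to p53 through CCNG1, which codes for cyclin G1, a p53 target that in turn acts on MDM2, and CCNG1 was therefore added to the genes described.

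The mature miRNAs are shown with the seed, bases 2 to 8, in capitals, since the sites below are defined by it. Both sequences are from RefSeq (GRCh38.p14). MIR1-2 and MIR122, the genes they were read from, place them at chr18:21829015-21829036 on the minus strand and chr18:58451088-58451109 on the plus strand, respectively.
hsa-miR-1-3p: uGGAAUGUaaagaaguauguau
hsa-miR-122-5p: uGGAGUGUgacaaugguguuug

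The seeds differ, so the miRNAs belong to different seed families. Sites of miR-124 were not analysed here. For every gene, its longest 3′ UTR in the annotation (GENCODE release 44, GRCh38, stop codon included) was searched on the mRNA strand for ACATTCC, the match to the miR-1 seed, and for ACACTCC, the match to the miR-122 seed. A match that is followed by A is an 8mer, ACATTCCA or ACACTCCA, and each 8mer contains the shorter words. A match to bases 2 to 7 that is followed by A, CATTCCA or CACTCCA, was counted as a weaker kind of site.

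Among the 9 genes, ZMAT3 was the only one with a 7-letter seed match of miR-1. It had 3 of them and 1 weaker site along a 3′ UTR of 7797 bases on chromosome 3. The 3 matches and the weaker site, in that UTR from its start to its end, are shown with the matched letters in capitals, because ZMAT3 was the member with the lowest ratio in the miR-1 library.
ZMAT3, seed match at chr3:179024920-179024941, minus strand: tttttgatatgagtACATTCCt
ZMAT3, seed match at chr3:179020993-179021014, minus strand: ttgacatcatccttACATTCCc
ZMAT3, 8mer at chr3:179019419-179019440, minus strand: tttttttttaaagaACATTCCA
ZMAT3, weaker site at chr3:179017856-179017877, minus strand: gatcctgctttaaagCATTCCA

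At least 3 copies of the miR-1 word were found in 55 of 11244 genes with an annotated 3′ UTR and at least 200 reads (0.489%), and at least 1 copy in 16.2%. For miR-122, MDM4 was the only member with a 7-letter seed match, and CCNG1 had an 8mer. At least 1 copy of the miR-122 word was found in 11.1% of the 11244 genes and its 8mer in 4.06%. These sites are shown because the rule for these genes names miR-122 and cyclin G1.
CCNG1, 8mer at chr5:163444488-163444509, plus strand: tcagactagattgaACACTCCA
MDM4, seed match at chr1:204550058-204550079, plus strand: tctgtcaccccaaaACACTCCc
BBC3, weaker site at chr19:47221646-47221667, minus strand: gcgggccggggcagcCACTCCA

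ZMAT3 also had 2 weaker sites of miR-122, and weaker sites of miR-122 were found in 21.5% of the 11244 genes. CDKN1A, GDF15, BAX, and SESN1 had no match of 6 letters or more to either seed, and MDM2 and RRM2B had matches of 6 letters only. A match is a string of letters in the annotation, and pairing of the miRNA with these sites was not measured.

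The authors deposited 1 FPKM value (fragments per kilobase of gene, scaled to the size of the library) for each gene and library. The reads behind the values were recovered from their step sizes. The divisors of the libraries lay between 5887055 reads (miR-122) and 9452232 reads (miR-1), with the control RNA at 6624306 and miR-124 at 6465436, so that counting error was smallest in the miR-1 library. The 9 genes had between 456 reads (GDF15) and 6176 reads (BAX) in the 4 libraries together. Of the markers of the cell line, VIM, CDH2, LHX1, and NEFM had mean levels of 113, 7.11, 1.62, and 1.60 in exon RPKM (reads per kb of exon, scaled to the library's divisor), PAX2 had 0.495, and INA was listed at 0 in every library. The blood markers PTPRC and CD3E had 1 and 0 reads in all, and the liver marker ALB had 3. Among the other markers of other tissues COL1A1 (fibroblasts) had a mean exon RPKM of 6.65 and MYOD1 (muscle) of 2.06, RBFOX3 (neurons) had 0.576, MYH7 (muscle) had 6 reads, and TTR (liver) had 23 reads, all in the miR-1 library.

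Ratios are FPKM in a mimic library over FPKM in the control RNA library, without a pseudocount. The 95% interval after each ratio is an exact binomial one (Clopper-Pearson) on the mimic library's share of the reads, turned into a ratio. It includes counting error alone and compares 2 libraries, not 2 conditions. The 3 ratios of a gene share the control RNA library, so that they are not independent. Where the other 2 mimic libraries served as the reference, the ratio is to the mean of their FPKM. The interval beside such a ratio is on their pooled reads, which weights them by depth, so that it need not be centred on the ratio. In this bulk RNA, fewer cells with an mRNA and less of it per cell cannot be told apart.

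The levels of the members were compared with each other in exon RPKM, since the deposited FPKM divide by the whole gene including introns. The exon length takes in the exons of all annotated transcripts of a gene. Whether reads in introns were counted is not given in the sources used here. Both limit the comparison of levels between genes. BAX, which codes for the pore-forming protein that permeabilizes mitochondria in apoptosis, had the highest level, 84.6 on average over the 4 libraries (75.8 to 92.4). It was followed by CDKN1A with 57.3 (51.4 to 62.7). Their ranges over the 4 libraries did not overlap with each other or with those of the other members. MDM2 followed with 21.9 (21.6 to 22.2) and BBC3 with 19.4 (16.6 to 23.4), and these ranges overlapped.

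The lower levels were ZMAT3 with 9.69 (7.62 to 11.9), GDF15 with 7.87 (6.29 to 8.87), and RRM2B with 6.56 (5.68 to 7.42). All 3 were below BBC3, and neighbors among them overlapped. SESN1 with 4.50 (3.87 to 5.19) and MDM4 with 3.62 (3.15 to 3.93) were the lowest, below RRM2B, and overlapped with each other. BAX and CDKN1A were thus set apart at the top, and most neighbors further down differed by less than the spread of a gene over the 4 libraries. These ranges are over different conditions, since no condition had a second library.

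**Figure D1:**
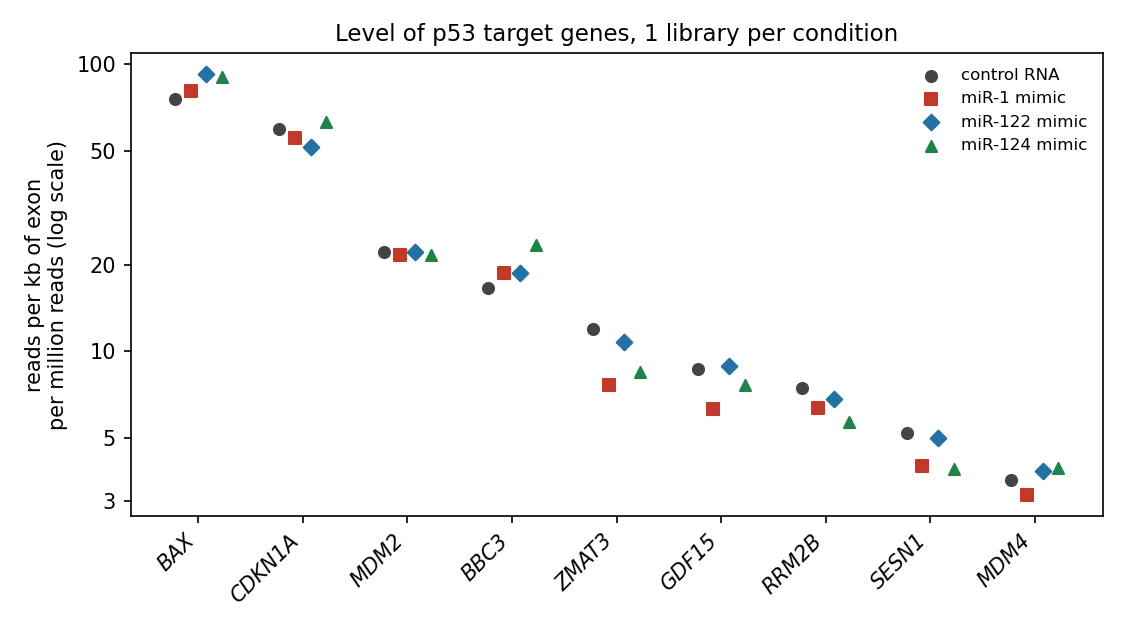
Level of each member in exon RPKM, reads per kb of exon scaled to the library (log scale), with 1 point for each of the 4 libraries. Genes are ordered by their mean, from BAX at 84.6 to MDM4 at 3.62, and the 4 points of MDM2 lie closest together, between 21.6 and 22.2.

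For MDM2 and MDM4, the negative regulators of p53, every counting interval held 1, which was the case for no other member. MDM2 (ENSG00000135679, chr12:68808177-68845544, plus strand, GRCh38) had an FPKM of 4.34 with the control RNA and 4.23, 4.32, and 4.21 with the miR-1, miR-122, and miR-124 mimics, from 1223, 1700, 1082, and 1158 reads. Its ratios were 0.974 (0.905 to 1.05), 0.996 (0.916 to 1.08), and 0.970 (0.894 to 1.05), and the intervals together ran from 0.894 to 1.08. MDM2 is the gene whose transcription p53 uses to limit itself, and its highest and lowest levels in the 4 libraries differed by a factor of 1.03, the smallest among the members. Whether the counting used strand is not given in the sources used here, so reads in bases that genes on opposite strands share cannot be assigned. Exons of other genes cover part of those of MDM2, up to 9.45% for a long noncoding RNA on the opposite strand, and noncoding genes on the opposite strand cover 4.87% of the exon bases of CDKN1A and 4.99% of those of SESN1.

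MDM4 (ENSG00000198625, chr1:204516379-204558120, plus strand), which binds p53 and blocks its transactivation, was at 0.937 with the control RNA and 0.831, 1.01, and 1.04 with the miR-1, miR-122, and miR-124 mimics. These FPKM rest on 259, 328, 248, and 280 reads. The ratios were 0.888 (0.752 to 1.05), 1.08 (0.902 to 1.29), and 1.11 (0.932 to 1.32), with wider intervals than those of MDM2. The seed match of miR-122 in MDM4 thus stood beside a ratio above 1 in the miR-122 library. Over the 1106 genes with 1 copy of this word the median ratio was 0.928 in that library, and over the 10000 genes with none it was 0.991. In the libraries without miR-122 the medians were 0.925 against 0.967 (miR-1) and 0.941 against 0.967 (miR-124) for the same genes.

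CDKN1A (ENSG00000124762, chr6:36676460-36687337, plus strand) codes for p21, the inhibitor of cyclin-dependent kinases through which p53 arrests the cell cycle. Its FPKM was 16.4 with the control RNA and 15.3, 14.1, and 17.3 with the miR-1, miR-122, and miR-124 mimics, from 1181, 1573, 906, and 1214 reads. The miR-122 library was the lowest and the miR-124 library the highest. The ratio was 0.863 (0.791 to 0.942) with miR-122, with an interval below 1, and 0.933 (0.865 to 1.01) with miR-1 and 1.05 (0.971 to 1.14) with miR-124, with intervals that held 1. With miR-1 and miR-124 averaged as the reference, the ratio with miR-122 was 0.869 (0.815 to 0.948). With miR-1 and miR-122 averaged instead, the ratio with miR-124 was 1.17 (1.08 to 1.24), with an interval above 1. CDKN1A was the only member whose interval was below 1 in the miR-122 library, where 16.6% of 12739 genes had such an interval.

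GDF15 (ENSG00000130513, chr19:18374731-18389176, plus strand), a secreted cytokine of the TGF-beta superfamily induced by stress, had the fewest reads of the members. Its FPKM was 1.254 with the control RNA and 0.908, 1.28, and 1.10 with the miR-1, miR-122, and miR-124 mimics, from 120, 124, 109, and 103 reads. The miR-1 library was the lowest, with a ratio of 0.724 (0.559 to 0.939), and the miR-124 library was also below the control RNA. The ratios with miR-122, 1.02 (0.781 to 1.34), and with miR-124, 0.879 (0.669 to 1.15), had wide intervals that held 1. At this depth the intervals for miR-122 and miR-124 together ran from 0.669 to 1.34.

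The pro-apoptotic genes of the BCL2 family, BAX and BBC3, were the only members with ratios above 1 in all 3 mimic libraries, as were 22.8% of 12745 genes. BAX (ENSG00000087088, chr19:48954815-48961798, plus strand) had an FPKM of 28.1 with the control RNA and 29.8, 34.2, and 33.3 with the miR-1, miR-122, and miR-124 mimics, from 1299, 1967, 1407, and 1503 reads. The control RNA library was the lowest of the 4. The ratios were 1.06 (0.989 to 1.14), 1.22 (1.13 to 1.32), and 1.19 (1.10 to 1.28), and for the miR-122 and miR-124 libraries the interval was above 1. In the miR-122 library 89.9% of genes had a lower ratio than BAX. Against the pooled reads of the other 2 mimic libraries the interval was 1.03 to 1.17 with miR-122, still above 1, and 0.994 to 1.12 with miR-124, where it held 1. With miR-1 BAX was below the mean of the other mimics, with a ratio of 0.883 (0.834 to 0.936).

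BBC3 (ENSG00000105327, chr19:47220822-47232766, minus strand) codes for PUMA, a BH3-only protein that frees BAX from its inhibitors. Its FPKM was 4.44 with the control RNA and 5.0, 4.99, and 6.24 with the miR-1, miR-122, and miR-124 mimics, from 351, 564, 351, and 482 reads. The miR-124 library was the highest, with a ratio of 1.41 (1.22 to 1.62), and 96.6% of the 12737 genes compared had a lower one. The ratios were 1.13 (0.984 to 1.29) with miR-1 and 1.13 (0.968 to 1.31) with miR-122, and both intervals held 1. Against the pooled reads of the other 2 mimic libraries the interval for miR-124, 1.12 to 1.40, was also above 1. The ratios of miR-1 and miR-122 to the mean of the other mimics were 0.889 (0.794 to 0.986) and 0.888 (0.802 to 1.02).

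SESN1, RRM2B, and ZMAT3 were the other target genes. SESN1 (ENSG00000080546, chr6:108984309-109094846, minus strand), which codes for sestrin 1, an inhibitor of mTORC1 signaling, had an FPKM of 0.348 with the control RNA and 0.266, 0.334, and 0.260 with the miR-1, miR-122, and miR-124 mimics, from 250, 273, 213, and 182 reads. The miR-1 and miR-124 libraries were low and the miR-122 library was near the control RNA. The ratios were 0.765 (0.642 to 0.912), 0.959 (0.795 to 1.16), and 0.746 (0.613 to 0.906). Against the pooled reads of the other 2 mimic libraries the intervals for miR-1, 0.771 to 1.06, and miR-124, 0.745 to 1.06, both held 1. With miR-122 SESN1 was above the mean of the other mimics at 1.27 (1.07 to 1.49).

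RRM2B (ENSG00000048392, chr8:102204502-102238961, minus strand) codes for the p53-inducible small subunit of ribonucleotide reductase, which supplies deoxynucleotides. Its FPKM was 1.16 with the control RNA and 0.984, 1.06, and 0.885 with the miR-1, miR-122, and miR-124 mimics, from 265, 322, 216, and 198 reads. The miR-124 library was the lowest, with a ratio of 0.766 (0.634 to 0.924). The ratios with miR-1, 0.852 (0.722 to 1.01), and with miR-122, 0.917 (0.763 to 1.10), had intervals that held 1. Against the pooled reads of the other 2 mimic libraries the interval for miR-124, 0.738 to 1.03, held 1 too.

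ZMAT3 (ENSG00000172667, chr3:178960121-179072215, minus strand), a zinc finger RNA-binding protein that acts on splicing and mRNA stability, differed most from the control RNA. Its FPKM was 1.22 with the control RNA and 0.782, 1.11, and 0.865 with the miR-1, miR-122, and miR-124 mimics, from 892, 814, 718, and 616 reads. The miR-1 library was the lowest, the miR-124 library was next, and the miR-122 library was close to the control RNA. The ratios were 0.640 (0.581 to 0.704), 0.906 (0.820 to 1.00), and 0.708 (0.637 to 0.785). In the miR-1 library 3.72% of genes had a lower ratio, and in the miR-124 library 5.64% did. Against the mean of the other 2 mimic libraries the ratio with miR-1 was 0.793 (0.730 to 0.871), so that the level with miR-1 was also below those of the other mimics, by less than below the control RNA. Against the pooled reads of the other mimics the interval for miR-124, 0.867 to 1.05, held 1. ZMAT3 with miR-122 was above the mean of the other mimics, at 1.34 (1.24 to 1.49). With a pseudocount of 0.1 added to both FPKM values its log2 ratio with miR-1 was -0.58, just short of 1.5-fold.

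**Figure D2:**
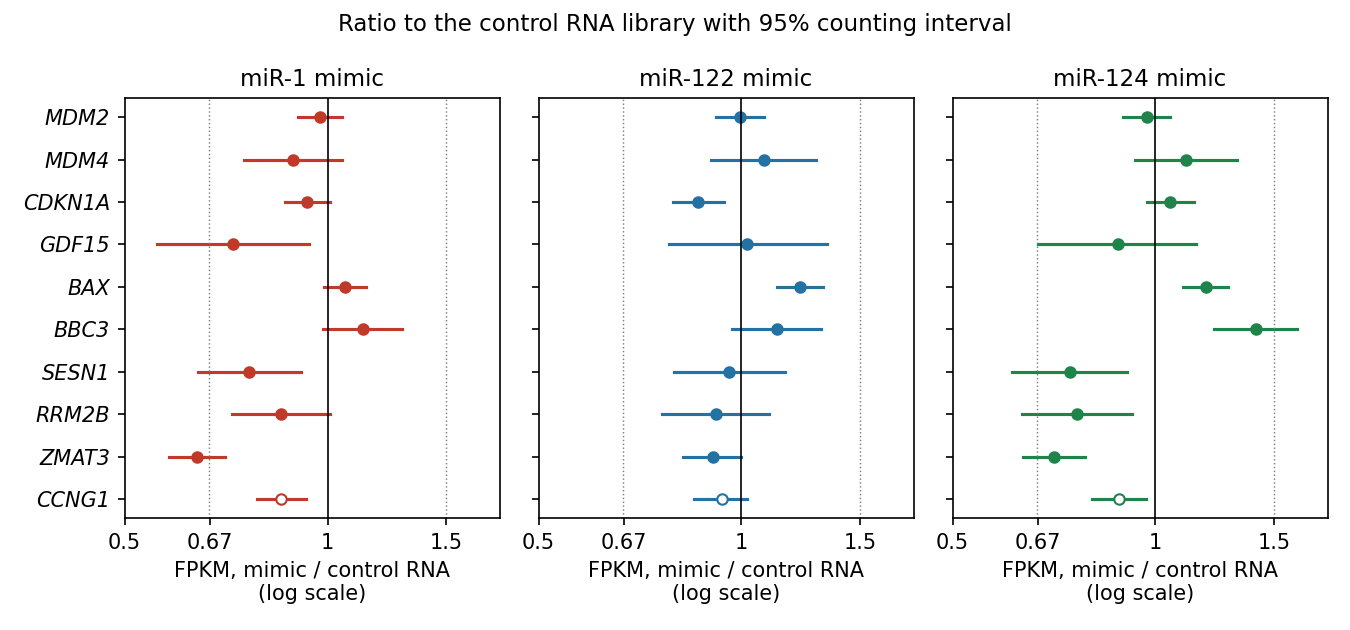
Ratio of FPKM in each mimic library to the control RNA library (log scale), with 95% counting intervals as bars, for the 9 members (filled) and CCNG1 (open). The solid line is a ratio of 1 and the dotted lines are 1.5-fold. ZMAT3 with miR-1 at 0.640 is the only point beyond 1.5-fold.

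The members were then set against all genes. With miR-1, ZMAT3 was the only member past 1.5-fold, 1 of 9, where 6.09% of 12741 genes with at least 200 reads were past it and 21.7% of all 22306 genes above 0.004 in both libraries. With miR-122 and miR-124 none of the 9 was past 1.5-fold, where 3.96% and 5.19% of genes with at least 200 reads were, and 21.4% and 22.1% of genes above 0.004. Every member had at least 200 reads, so that the share over such genes is the nearer background, and no test was possible behind these counts. Counting intervals that did not hold 1 were found with miR-1 for 3 members, GDF15, SESN1, and ZMAT3, all lower, where 40.5% of genes with at least 200 reads had such an interval, 24.8% being lower than the control RNA, and 26.5% of genes above 0.004. With miR-122 there were 2, BAX higher and CDKN1A lower, where 30% and 20.2% of these genes had one. With miR-124 there were 5, BAX and BBC3 higher and SESN1, RRM2B, and ZMAT3 lower, where 38.7% and 25.2% had one. With 9 genes in the list, the share of members was below the background over genes with at least 200 reads for miR-1 and miR-122 and above it for miR-124. With median-of-ratios size factors in place of the deposited scaling, 5 members had an interval off 1 with miR-1. The share over all genes was not computed for those size factors, so that this count could not be set against a background.

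The median log2 ratio of the 9 members was -0.17, -0.01, and -0.04 with the miR-1, miR-122, and miR-124 mimics. Over all genes with at least 200 reads it was -0.05, -0.02, and -0.05. The members' median was thus below that of all genes in the miR-1 library and close to it in the others. With miR-1, 7 of 9 members had a ratio below 1, where 57% of genes with at least 200 reads did, with miR-122 5 members did, where 53.6% did, and with miR-124 5 members did, where 56.4% did. MDM2, SESN1, RRM2B, and ZMAT3 were below 1 in all 3 mimic libraries, where 33.8% of 12745 genes were, with the control RNA library shared by the 3 ratios. With size factors in place of the deposited scaling, MDM2 was above 1 with miR-1 and miR-122, at 1.01 each. No member had an interval below 1 in all 3, where 7.67% of genes had.

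The members with the lowest and the highest ratios in the miR-124 library lay at opposite ends of the base composition of 3′ UTRs. RRM2B, SESN1, and ZMAT3 had the lowest GC contents, 32.4%, 35.7%, and 35.7%, and BAX and BBC3 had the highest, 56.4% and 63.0%. MDM2 had 37.7%, MDM4 42.0%, GDF15 46.7%, and CDKN1A 54.5%. Across the 9 members, Pearson's r between GC content and log2 ratio was 0.673, 0.541, and 0.867 with the miR-1, miR-122, and miR-124 mimics. The same measure was 0.243, 0.341, and 0.608 across the 11244, 11245, and 11244 genes with an annotated 3′ UTR, at least 200 reads, and a value in both libraries. Genes of 1 pair of libraries share those libraries and are not independent replicates, so that these values are descriptions, and the part of base composition in the ratios was not tested.

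A cubic trend in 4 properties (reads, gene span, and the length and GC content of the 3′ UTR) was fitted to the log2 ratios of all these genes and took up 19.6%, 18.3%, and 45.3% of the variance in the miR-1, miR-122, and miR-124 libraries. After it was subtracted, r across the 9 members was 0.154, -0.361, and 0.208. BBC3 with miR-124 went from a ratio of 1.41 to 1.09, and BAX from 1.19 to 0.956, on the other side of 1. SESN1 with miR-124 went from 0.746 to 0.874, RRM2B from 0.766 to 0.892, and ZMAT3 from 0.708 to 0.844. These 5 came closer to 1, except that BAX crossed it, and the other 4 moved away from it. CDKN1A went from 1.05 to 0.907 and MDM2 from 0.970 to 1.09, both across 1, MDM4 from 1.11 to 1.24, and GDF15, as a log2 ratio, from -0.19 to -0.32. The median log2 ratio of the 9 members with miR-124 went from -0.04 to -0.14. With miR-1, ZMAT3 went from 0.640 to 0.722, SESN1 from 0.765 to 0.859, and GDF15 from 0.724 to 0.664. GDF15, and no longer ZMAT3, was then the only member past 1.5-fold with miR-1. CDKN1A with miR-122, which lies below the trend for its GC content, went from 0.863 to 0.797. BAX with miR-122 came closer to 1, from 1.22 to 1.08.

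The copies of the seed match were then set against the ratios. In the miR-1 library the median ratio was 0.980 over the 9426 genes with no miR-1 word in the 3′ UTR, 0.876 over the 1557 genes with 1 copy, 0.826 over the 206 genes with 2, and 0.762 over the 55 genes with 3 or more. ZMAT3, with 3 copies, had 0.640. Past 1.5-fold lower were 20% of these 55 genes and 3.52% of the genes with none. The same genes, in the same order of copies, had medians of 0.991, 0.945, 0.925, and 0.920 in the miR-122 library and of 0.975, 0.913, 0.885, and 0.886 in the miR-124 library, so that genes with the miR-1 word were also lower there, by less. The groups by copies were not matched for 3′ UTR length. Pearson's r between the logarithm of that length and the log2 ratio was -0.333, -0.282, and -0.355 in the miR-1, miR-122, and miR-124 libraries, over genes with an annotated 3′ UTR and at least 200 reads. The part of length in these medians was not tested. The other 8 members had no copy, and their ratios with miR-1 ran from 0.724 (GDF15) to 1.13 (BBC3). ZMAT3 was also low with miR-124, whose sites were not analysed here.

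For CCNG1 (ENSG00000113328, chr5:163437569-163446151, plus strand) the FPKM was 17.8 with the control RNA and 15.2, 16.6, and 15.7 with the miR-1, miR-122, and miR-124 mimics, from 1011, 1232, 839, and 872 reads. The miR-122 library was the nearest to the control RNA among the mimics, and it is the 8mer of miR-122 that CCNG1 carries. The ratio with miR-122 was 0.934 (0.851 to 1.02), and the interval held 1. With miR-1 and miR-124, of which miR-1 has no match in its 3′ UTR, the ratios were 0.854 (0.785 to 0.929) and 0.884 (0.806 to 0.968). Against the mean of these 2 libraries the ratio with miR-122 was 1.07 (0.994 to 1.17), above 1 with an interval that held it. Over the 457 genes with the 8mer of miR-122 the median ratio in the miR-122 library was 0.900, and 9.19% of them were past 1.5-fold lower. The same 457 genes had medians of 0.917 in the miR-1 library, with 8.75% past 1.5-fold lower, and 0.929 in the miR-124 library. CCNG1 was above the median of these genes with miR-122 and below it with miR-1 and miR-124.

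**Figure D3:**
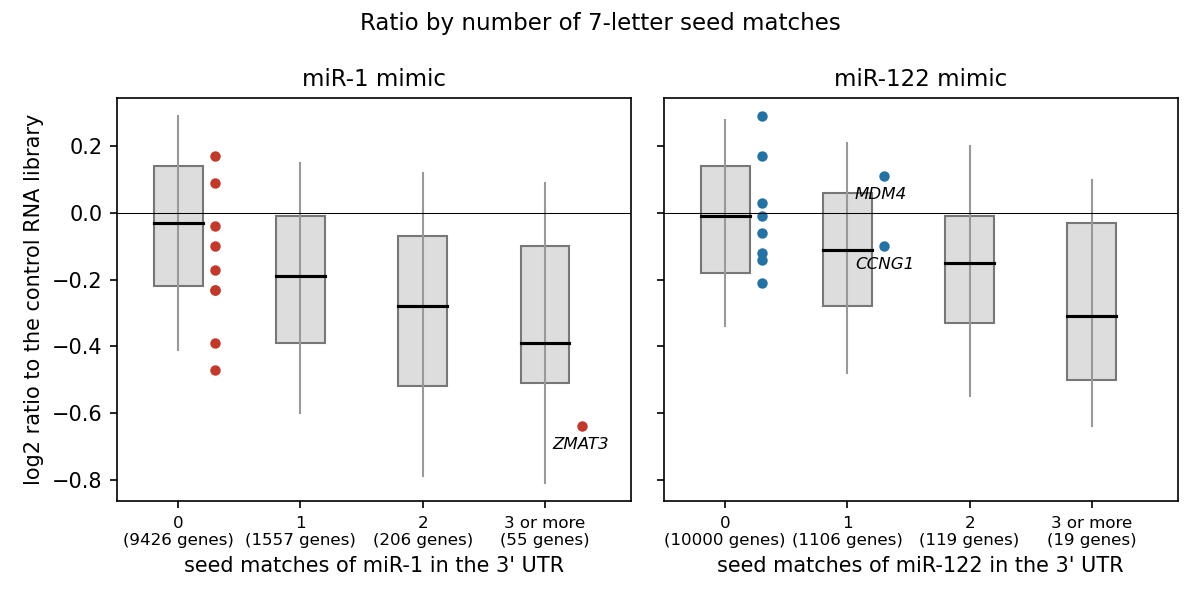
log2 ratio to the control RNA library by the number of 7-letter seed matches in the 3′ UTR, for miR-1 (left) and miR-122 (right). Boxes span the 25th to 75th percentile of all genes with the median as a line, whiskers the 10th to 90th percentile, and points are the members and CCNG1. ZMAT3 lies below the median of its group (-0.64 against -0.39), and MDM4 (0.11) and CCNG1 (-0.10) lie at or above theirs (-0.11).

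Genes around p53 were read in the same way from lists of regulators and targets. Of the 19 p53 regulators, 18 were above the threshold with at least 200 reads, and TP63, a p53 relative, had 4 reads in all. ATM, the kinase that signals DNA breaks to p53, had an FPKM of 0.382 with the control RNA and 0.244, 0.290, and 0.256 with the miR-1, miR-122, and miR-124 mimics, with a ratio of 0.638 (0.549 to 0.742) with miR-1. ATR, the kinase that signals stalled replication, had 0.276, 0.196, 0.258, and 0.168, with a ratio of 0.610 (0.491 to 0.754) with miR-124. These were the only regulators past 1.5-fold, and none was past it with miR-122. The interval was below 1 for 9, 8, and 6 regulators in the miR-1, miR-122, and miR-124 libraries, and above 1 for 3, 1, and 3. Of genes with at least 200 reads, 24.8%, 16.6%, and 22.1% were below and 15.7%, 13.4%, and 16.6% above. Chosen after their values were seen, ATM, CHEK1, HIPK2, EP300, and HUWE1 had intervals below 1 in all 3 libraries, where 7.67% of genes had. These intervals share the control RNA library. With the other mimics as the reference, every interval of these genes held 1 except that of HIPK2 with miR-1 (0.798 to 0.99). The median log2 ratio of the 18 was -0.22, -0.10, and -0.16, against -0.05, -0.02, and -0.05 for all genes. With the trend subtracted, ATM was at 0.722 with miR-1 and ATR at 0.692 with miR-124, both short of 1.5-fold. The median of the regulators was not computed with the trend subtracted, and the part of base composition and length in it was not tested.

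Of 53 further p53 targets, 47 had at least 200 reads. None of the 47 was 1.5-fold or more above the control RNA in any mimic library, where 1.05%, 1.46%, and 1.95% of genes with at least 200 reads were. Those that were 1.5-fold or more below it were 3 with miR-1 (5.04% of such genes), 2 with miR-122 (2.5%), and 4 with miR-124 (3.24%). FAS, a death receptor, was among them in every library, with an FPKM of 0.713 with the control RNA and 0.403, 0.472, and 0.460 with the miR-1, miR-122, and miR-124 mimics. Its ratios were 0.565 (0.482 to 0.662), 0.662 (0.555 to 0.787), and 0.646 (0.544 to 0.765). All 3 are measured against the same control RNA library. With the other mimics as the reference, FAS had ratios of 0.865 (0.743 to 1.01), 1.09 (0.938 to 1.3), and 1.05 (0.912 to 1.26), in the same order, and every interval held 1. With the trend subtracted its ratios to the control RNA were 0.649, 0.740, and 0.740, past 1.5-fold with miR-1 only.

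Further targets were 1.5-fold or more lower with 1 or 2 of the mimics. The mitophagy gene SPATA18 had a ratio of 0.599 (0.416 to 0.861) and EDA2R, a receptor of the TNF receptor family, of 0.626 (0.503 to 0.780) with miR-1. KITLG, the ligand of KIT, had a ratio of 0.611 (0.439 to 0.844) with miR-124. POLK, a translesion DNA polymerase, had ratios of 0.641 (0.517 to 0.793) with miR-122 and 0.651 (0.529 to 0.799) with miR-124. Among targets with fewer reads, PRDM1, a transcriptional repressor with 85 reads in all, had a ratio of 0.350 (0.175 to 0.672) with miR-1.

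Over the 47 targets the interval was above 1 for 8, 11, and 7 with the miR-1, miR-122, and miR-124 mimics, and below 1 for 15, 3, and 10. The background was 15.7%, 13.4%, and 16.6% of genes with at least 200 reads above and 24.8%, 16.6%, and 22.1% below. The median log2 ratio was -0.13, 0.04, and -0.02. As with the members, the median of the further targets was lowest in the miR-1 library. By function, over targets with at least 200 reads, the medians in the miR-1, miR-122, and miR-124 libraries were -0.23, -0.03, and -0.18 for 14 genes of cell cycle and feedback. They were 0.01, 0.07, and -0.07 for 18 genes of cell death and -0.14, 0.09, and -0.02 for 7 of repair. For 8 genes of metabolism and oxidative stress they were 0.20, 0.01, and 0.23. Of these 8, GPX1, FDXR, and CPT1C had an interval above 1 with miR-124. With the trend subtracted, their log2 ratios there went from 0.39 to 0.04, 0.31 to -0.01, and 0.51 to 0.27. The medians by function were not computed with the trend subtracted, and a difference between functions was not tested.

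The partners of the members were also read. In the BCL2 family, to which BAX and BBC3 belong, 13 of 14 genes were above the threshold in both libraries, and the anti-apoptotic BCL2 had an FPKM of 0.0660 with the control RNA and 0.0392, 0.0449, and 0.0652 with the miR-1, miR-122, and miR-124 mimics. Its ratio of 0.595 (0.429 to 0.822) with miR-1 was the only one of the family past 1.5-fold with an interval off 1. Among the 12 cyclins, kinases, and PCNA that p21 binds or holds, CCNE1, the cyclin E1 of the entry into S phase, had a ratio of 1.58 with miR-1, with an interval above 1, and no other gene was past 1.5-fold. CDKN1C, the p21 relative p57, had an FPKM of 5.38, 7.61, 8.02, and 10.1 in the control RNA, miR-1, miR-122, and miR-124 libraries, with the control RNA as the lowest, and a ratio of 1.89 (1.46 to 2.45) with miR-124. CDKN1A, by comparison, was at 1.05 there.

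Genes whose 3 log2 ratios were nearest to those of CDKN1A, by Euclidean distance over 12735 genes with at least 200 reads, were NSUN5P1 (0.0235), VPS37C (0.0293), and ZNF3 (0.0443). A distance of 0.1 held 71 genes around CDKN1A, so that the 3 named are not apart from many others, and the measure rests on 3 ratios with a shared control.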

How the data were processed

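RNA-seq was done on 4 libraries of 293T cells, 1 per condition. The authors trimmed the reads, mapped them to GRCh38, and deposited 1 FPKM value per gene and library. The submitters' processing notes name CASAVA 1.8 and HISAT2 2.0.0, and the counting program and annotation are not given in the sources used here. Of 58243 identifiers, 57532 (98.8%) matched GENCODE release 44, from which symbols, coordinates, and 3′ UTRs were taken.

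For genes with few reads, FPKM values are whole multiples of the value of 1 read, which gave the divisor of each library. Reads were then recovered with the gene length, equal to the end minus the start of the gene or the nearest length within 10%, that made them whole within 0.002 reads. Whole reads were found for 99.9% of 12745 genes with at least 200 reads over the 4 libraries. For 94.8% of those found, the length lay within 10% of the span. Where no such length fitted, the smallest fitting length was used. MDM2 was such a member, with a length of 42510 bases against a span of 37368. A reads value can still be off by a whole factor, which leaves the ratio as it is and moves the interval and the level per kb of exon. A gene of 1 kb gets a value of 0.151 from 1 read in the control RNA library, and 0.106, 0.170, and 0.155 with miR-1, miR-122, and miR-124. Since this length includes introns, levels between genes were given per kb of exon. A count test was not run, since each condition has 1 library. Ratios used genes above 0.004 in both libraries, the threshold of the study.

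The genes and the lists were chosen with earlier results of these data known. Named were the 9 members, CCNG1, from each other list up to 4 genes past 1.5-fold with a counting interval off 1 in any mimic library (largest log2 ratio first), and the 3 genes nearest to CDKN1A. A few results that the rule would name are not reported here. Markers of the cell line and of other tissues were named as a check of the cells, and of the targets SOD2 had no match and SCO2 was listed at 0. Alternatives were the other 2 mimic libraries (their mean) in place of the control RNA, pseudocounts of 0.1 and 1, median-of-ratios size factors, other filters, a smaller fold and a fold of 2, and subtraction of a cubic trend with GC content, lengths, and reads. The steps were tested on simulated reads with counting error alone and with gene lengths within 10% of the span. Recovery with lengths further from the span, as for MDM2, was thus not tested. The tools were Python 3.11.15 with pandas 2.3.3, numpy 2.4.6, scipy 1.17.1, and, for plots, matplotlib 3.10.9.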

Additional observations from a re-analysis of the deposited data

How the results depend on the processing

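No paired analysis was possible because the groups hold 1 library each, and for the same reason no replicate could be left out. Of 60 alternative values for the counts and medians of the members, 46 stayed within the limits set for a like value and 14 moved. Shares over all genes were computed only for 1.5-fold and for the control RNA as reference with the deposited scaling. The counts of members at other settings thus have no background beside them. With miR-1, ZMAT3 was no longer past 1.5-fold with a pseudocount of 0.1 or 1 or against the other mimics (0 members each), at 2-fold there were 0 and at the smaller fold tried 3, intervals off 1 went from 3 to 5 against the other mimics and to 5 with size factors, and the median log2 ratio from -0.17 to -0.09 with a pseudocount of 1. With the trend subtracted the count with miR-1 stayed at 1, but the member past 1.5-fold was GDF15 (0.664) in place of ZMAT3 (0.722). With miR-122, intervals off 1 went from 2 to 5 and the median from -0.01 to 0.12 against the other mimics. With miR-124, intervals off 1 went from 5 to 2 against the other mimics, 4 members were past the smaller fold, and the median went from -0.04 to 0.01 against the other mimics and to -0.14 with the trend subtracted. Pseudocounts shrink the ratios of genes with low FPKM by construction. A smaller fold can only add members to a count and a larger fold can only remove them. The cause of the other shifts was not tested. Of 150 alternative values for single genes, 23 were on the other side of 0 from the reported log2 ratio, 11 with the trend subtracted, 10 against the other mimics, and 2 with size factors. In 1 of them the reported interval did not hold 1: BAX with miR-124 went from 0.25 to -0.07 with the trend subtracted. Against the other mimics BBC3 went from 0.17 to -0.17 with miR-1 and with miR-122, ZMAT3 with miR-122 from -0.14 to 0.43, and SESN1 with miR-122 from -0.06 to 0.34. The intervals lost for miR-124 against the other mimics were those of BAX, SESN1, RRM2B, and ZMAT3, and that of CDKN1A was gained (1.08 to 1.24). Depth limits GDF15 most, with 103 to 124 reads per library.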
